A study of Mus musculus with 9 samples.

Results

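The respiratory chain genes were 78 of the 38195 gene symbols in an expression table of the embryonic mouse hypothalamus, and their symbols, not their values, decided membership. The name patterns took the numbered Nduf subunits of complex I, the Sdh subunits of complex II, the Uqcr subunits of complex III, the Cox subunits of complex IV from Cox4 to Cox8, and the protein genes of the mitochondrial genome, which carry the prefix mt-. The nucleus encodes 65 of them, with 36 in complex I, 4 in complex II, 8 in complex III and 17 in complex IV by symbol, and the mitochondrial genome encodes 13. Cox4i1 was not analysed here.

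RNA came from E12.5 embryos of CD-1, an outbred mouse strain, and the labels of no sample name a mutation or treatment. Slices of hypothalamus were cut into a ventricular zone next to the ventricle (VZ), a medial mantle zone beyond it (mMZ) and a lateral mantle zone outermost (lMZ), with 3 libraries each. Whether the replicates of a zone are different embryos is not stated, so the p-values speak only for the scatter among these libraries, which may be technical. Levels are FPKM, fragments scaled by transcript length and by the mapped total of the library, as the authors deposited them.

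The respiratory chain is the set of protein complexes in the inner mitochondrial membrane that passes electrons from NADH and succinate to oxygen and pumps protons, and the proton gradient drives ATP synthase. Complex II is built from nuclear genes alone, whereas complexes I, III and IV and ATP synthase need subunits from both genomes. The mitochondrial genome is transcribed from both strands as long precursors that are then cut into single messages, and neural progenitors are generally held to rely more on glycolysis, and neurons more on oxidative phosphorylation.

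Depth is known only in relative terms, from the spacing of the low values. It corresponded to 4469149 to 8815241 fragments in 7 libraries, to 260616 in VZ replicate 3 and to 535887 in mMZ replicate 3. In the last 2, by the same spacing, 1 fragment on a transcript of 1 kb is worth 3.84 and 1.87 FPKM, and more on a shorter one. Low values of short chain genes there would then rest on few fragments. The main counts of chain genes and some differences of single genes are therefore given with and without these 2 shallow libraries. Other values of single genes are given with all 9 libraries only. Progenitor markers (5 of 5 in the table) summed to 873 to 1808 FPKM in the VZ, 858 to 1015 FPKM in the mMZ and 50.9 to 107 FPKM in the lMZ. Neuron markers (4 of 5, without Tubb3) summed to 244 to 753 FPKM, 705 to 807 FPKM and 1066 to 1272 FPKM in the same order of zones, and VZ replicate 2 had the highest neuron sum and the lowest progenitor sum of its zone. Dividing-cell markers (3 of 3) summed to 85.2 to 343 FPKM, 54.5 to 133 FPKM and 2.50 to 6.47 FPKM. Erythroid markers (6 of 6) summed to 1890.2 to 2040.2 FPKM, 1340.1 to 2448 FPKM and 224 to 541 FPKM. Microglial markers (4 of 4) summed to 4.11 to 14.4 FPKM, 8.66 to 17.5 FPKM and 22.1 to 31.0 FPKM, and endothelial markers (4 of 4) to 3.11 to 20.3 FPKM, 7.62 to 23.6 FPKM and 3.70 to 16.5 FPKM. Hypothalamic markers (5 of 5) summed to 85.1 to 221 FPKM, 99.7 to 226 FPKM and 53.1 to 76.2 FPKM, but the 5 did not move together. Rax was listed at 0 in all 3 lMZ libraries. Of the 5, 3 had a higher mean log2 level in the VZ than in the lMZ, and 2, Six6 and Sim1, a lower one. Telencephalic markers (2 of 2) summed to 0.550 to 28.8 FPKM over all libraries and overlapped between zones. The part of cell composition in the results below was not tested, and in bulk tissue fewer cells of a type cannot be told apart from less RNA per cell.

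Few respiratory chain genes passed the test between zones, and the mitochondrial group depended on which libraries were used. Levels were compared as log2(FPKM + 1) with limma over all 14004 genes that reached 1 FPKM in 3 or more libraries, with an adjusted p under 0.05 as the threshold, and differences on this scale understate changes at low levels. Of the 78 chain genes, 72 were tested, 59 nuclear and 13 mitochondrial. Cox7a2 was the only one past the threshold in any comparison, lower in the VZ than in the lMZ. The 13 mitochondrial genes all had lower means in the mMZ than in the lMZ, with a median difference of -0.70, and none passed the threshold with all 9 libraries.

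**Figure D1:**
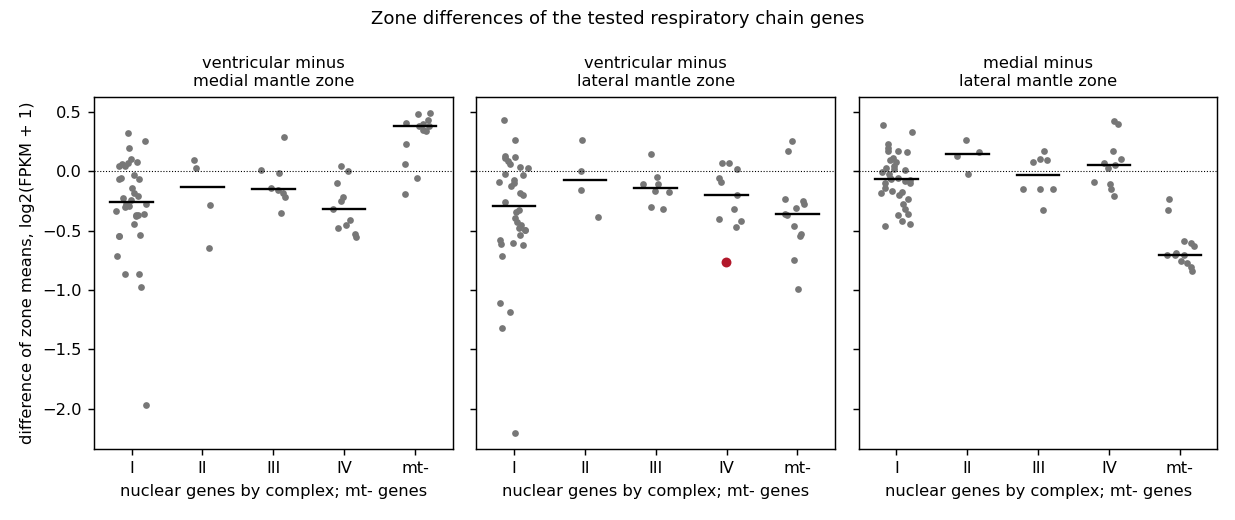
Difference of zone means on the log2(FPKM + 1) scale for each of the 72 tested chain genes, with nuclear genes by complex and the mt- genes in the last column, in 3 panels for the 3 comparisons. Horizontal bars are medians and the red point is Cox7a2, the only gene past the threshold. The mt- points lie mostly above 0 in the first panel and below 0 in the last, while the nuclear medians lie between -0.32 and 0.15.

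Cox7a2 encodes the widely expressed form of subunit 7A of cytochrome c oxidase, complex IV, the enzyme that hands electrons to oxygen. Its gene lies at chr9:79755361-79759878 on the minus strand (GRCm38). Its level was 66.3, 85.3 and 73.5 FPKM in the VZ libraries, 105, 114 and 112 FPKM in the mMZ libraries and 145, 123 and 116 FPKM in the lMZ libraries. No library of one zone reached into the range of another, and the order ran from the VZ, lowest, to the lMZ, highest. The means were 75.0 ± 9.56, 110.1 ± 4.87 and 128 ± 15.2 FPKM in that order of zones (SD, n = 3 each). The difference was -0.76 ± 0.15 between the VZ and the lMZ (log2, SE), with a limma adjusted p of 0.00908, and it stayed past the threshold in all 22 alternative settings (adjusted p 0.000133 to 0.0499). It was -0.55 ± 0.15 between the VZ and the mMZ (adjusted p = 0.361) and -0.21 ± 0.15 between the mMZ and the lMZ (adjusted p = 0.466). By this rule 8.93% of all tested genes were lower in the VZ than in the lMZ and 19.6% differed in either direction, and 1 of 59 nuclear genes and 0 of 13 mitochondrial genes lie below that background. The 1 nuclear gene past the adjusted threshold became 12 without VZ replicate 2, where 14.5% of all tested genes were called lower, 5 without VZ replicate 3, where 7.53% were, and 2 without mMZ replicate 3, where 9.74% were. At an unadjusted p under 0.05, 13 of 59 nuclear genes and 2 of 13 mitochondrial genes were lower in the VZ than in the lMZ, against 16.5% of all tested genes, and none was higher, against 19.3%. In the VZ against the mMZ limma called 0 of 72 chain genes and 0% of all tested genes. At an unadjusted p under 0.05, 8 of 59 nuclear genes were lower there, against 8.16% of all tested genes. None of the 59 was higher, against 518 of the 14004 tested genes. Without VZ replicate 2 limma called 2 of the 59 nuclear genes lower between those zones, against 3.42% of all tested genes. In the mMZ against the lMZ it called 0 of 72 chain genes and 4.12% of all tested genes. At an unadjusted p under 0.05, 1 of 59 nuclear genes and 9 of 13 mitochondrial genes were lower there, against 6.12% of all tested genes. None of the 72 was higher, against 14.5%.

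The promoter of Cox7a2 is shown because it belongs to the one chain gene past the threshold, beside that of Cox6a1, the nuclear chain gene with the highest level. Both run from 250 bases before to 50 bases after the RefSeq start on GRCm38.p6, minus strand, 5′ to 3′, at chr9:79759804-79760103 for Cox7a2 and chr5:115348909-115349208 for Cox6a1. Capitals mark matches, on either strand, to the letters GCGCA, any base and GCGC (NRF1), CCGGAAG (ETS factors) or AAGATGGCG (YY1), recognition sequences of factors long linked to nuclear chain genes. The Cox7a2 window held none, and the Cox6a1 window held 2 of the NRF1 letters and 1 of the ETS letters.
Cox7a2: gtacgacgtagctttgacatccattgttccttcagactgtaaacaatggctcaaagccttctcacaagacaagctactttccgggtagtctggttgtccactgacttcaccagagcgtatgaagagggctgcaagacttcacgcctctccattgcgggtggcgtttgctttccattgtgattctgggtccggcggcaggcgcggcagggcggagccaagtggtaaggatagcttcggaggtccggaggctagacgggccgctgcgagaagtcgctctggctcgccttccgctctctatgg
Cox6a1: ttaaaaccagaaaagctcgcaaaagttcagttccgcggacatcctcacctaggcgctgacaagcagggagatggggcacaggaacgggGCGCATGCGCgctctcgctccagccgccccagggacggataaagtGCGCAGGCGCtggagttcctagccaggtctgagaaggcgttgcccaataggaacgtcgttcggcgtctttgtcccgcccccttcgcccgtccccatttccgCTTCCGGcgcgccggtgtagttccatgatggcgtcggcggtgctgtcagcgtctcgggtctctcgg
A window of this kind was found for 50 of the 59 tested nuclear genes. The NRF1 letters were in a window of 22% of these genes, against 11.6% of the 9482 tested genes with a window and 5.19% of all 27025 genes with a window. The ETS letters were in 22%, 19.9% and 9.93% of the same sets, and the YY1 letters in 10%, 3.6% and 1.64%. The ETS and YY1 letters can share 3 bases, and no chain gene's window held both. A match is a run of letters and no measure of binding, and its absence says nothing about a factor.

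Over all 59 tested nuclear genes the median difference was -0.22 between the VZ and the mMZ, against -0.05 for all tested genes, and 44 of the 59 lay below 0. It was -0.19 between the VZ and the lMZ, against 0.05 for all tested genes, again with 44 below 0. It was -0.02 between the mMZ and the lMZ, against 0.10 for all tested genes, with 31 below 0. Of all tested genes 54.8%, 47.1% and 41.6% lay below 0 in the same order of comparisons. In 10 of the 59 every VZ library lay below every mMZ library, which held for 9.3% of all tested genes. In 14 of the 59 every VZ library lay below every lMZ library, against 19.9% of all tested genes. In 6 of the 59 every mMZ library lay below every lMZ library, against 14.8% of all tested genes. In 2 every one lay above, against 3595 of the 14004 tested genes. In none of the 59 did every VZ library lie above every mMZ library or every lMZ library, against 751 and 3530 of the 14004. Rescaling the libraries without the mt- genes moved the median of the nuclear genes between the VZ and the lMZ to -0.0056, and that of all tested genes to 0.21, so the sign of the nuclear median relative to all genes was unchanged while its size near 0 depended on the scaling.

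The 10 nuclear genes whose VZ libraries all lay below the mMZ libraries were Cox5a, Cox6c, Cox7a2, Ndufa13, Ndufb8, Ndufc2, Ndufs4, Ndufv3, Sdhb and Sdhc. The 14 whose VZ libraries all lay below the lMZ libraries were Cox6b1, Cox6c, Cox7a2, Ndufa1, Ndufa11, Ndufa13, Ndufa4, Ndufa5, Ndufb2, Ndufb4, Ndufb6, Ndufb7, Ndufb8 and Ndufb9. The 6 whose mMZ libraries all lay below the lMZ libraries were Cox7a2, Ndufa7, Ndufb6, Ndufs6, Uqcr11 and Uqcrb, and the 2 with the opposite order were Sdhc and Sdhd. Among tested genes, mean levels over the 9 libraries ran from 11.9 FPKM (Ndufa11) to 184 FPKM (Ndufa4) in complex I, from 35.1 FPKM (Sdhd) to 79.3 FPKM (Sdhb) in complex II, from 64.5 FPKM (Uqcrc2) to 137 FPKM (Uqcrh) in complex III and from 4.59 FPKM (Cox6b2) to 272 FPKM (Cox6a1) in complex IV. Without both shallow libraries, 26 of the 59 had both VZ libraries below every remaining mMZ library, against 25.7% of all tested genes, and 26 had them below every lMZ library, against 25%. For the mMZ and the lMZ the count was 10 of 59, against 19.7% of all tested genes.

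Summed over the nuclear chain genes, the level was 3996, 4818 and 4956 FPKM in the VZ libraries, 5437, 4971 and 5121 FPKM in the mMZ libraries and 5738, 5185 and 5091 FPKM in the lMZ libraries. Every VZ library was below every other library. The nuclear chain genes made up 1.04% ± 0.0456, 1.12% ± 0.0783 and 1.06% ± 0.0948 of all FPKM in the VZ, mMZ and lMZ (SD, n = 3 each), and these shares overlapped between zones.

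Complex I, NADH dehydrogenase, is the entry point of electrons from NADH. The 36 nuclear genes that the name patterns took for it summed to 2070.3 ± 186 FPKM in the VZ, 2339.8 ± 113 FPKM in the mMZ and 2493 ± 187 FPKM in the lMZ (SD, n = 3 each). None passed the threshold, and 4, 9 and 1 of the 36 were lower at an unadjusted p under 0.05 in the VZ against the mMZ, the VZ against the lMZ and the mMZ against the lMZ, with none higher. The shares of all tested genes that were lower were 8.16%, 16.5% and 6.12% in the same comparisons. Ndufa4, named for complex I and since placed in complex IV, had the highest level of the Nduf genes, with 145, 177 and 155 FPKM in the VZ, 190.1, 166 and 142 FPKM in the mMZ and 244, 247 and 187 FPKM in the lMZ. The VZ and lMZ libraries did not overlap, and the mMZ libraries spanned part of both ranges. The difference was -0.50 ± 0.17 between the VZ and the lMZ (limma adjusted p = 0.0645).

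Ndufa5, Ndufb6 and Ndufa13, all accessory subunits of complex I, were chosen after their values were seen, as the Nduf genes closest to the threshold between the VZ and the lMZ. Ndufa5 had 39.99, 52.0 and 13.2 FPKM in the VZ, 52.3, 46.6 and 72.0 FPKM in the mMZ and 81.2, 81.2 and 70.2 FPKM in the lMZ. Ndufb6 had 30.2, 44.3 and 11.5 FPKM in the VZ, 42.9, 56.0 and 42.0 FPKM in the mMZ and 57.8, 56.7 and 59.9 FPKM in the lMZ. Ndufa13 had 26.8, 28.0 and 16.7 FPKM in the VZ, 34.3, 33.5 and 35.4 FPKM in the mMZ and 36.8, 33.7 and 37.8 FPKM in the lMZ. In all 3 genes the VZ lay below the lMZ without overlap, and the lowest value was that of the shallow VZ replicate 3. The differences were -1.32 ± 0.41, -1.18 ± 0.39 and -0.61 ± 0.20 for Ndufa5, Ndufb6 and Ndufa13 (limma adjusted p = 0.0508, 0.0584 and 0.0606). Ndufb2 and Ndufa11, also chosen after their values were seen, were lowest in that library too. With all 9 libraries Ndufb2 had the widest VZ difference of all chain genes from the lMZ. In the VZ Ndufb2 had 47.6, 61.7 and 0.852 FPKM and Ndufa11 9.91, 12.9 and 1.44 FPKM. Both values of VZ replicate 3 lie below the 3.84 FPKM estimated there for 1 fragment on a transcript of 1 kb. They may rest on less than 1 whole fragment, and what they stand for was not tested. The differences of Ndufb2 and Ndufa11 between the VZ and the lMZ were -2.20 ± 1.07 and -1.11 ± 0.55 (limma adjusted p = 0.171 and 0.177). Without both shallow libraries they were -0.57 ± 0.20 and -0.33 ± 0.17 (limma adjusted p = 0.0655 and 0.175).

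Complex II, succinate dehydrogenase, links the chain to the Krebs cycle. Its 4 genes summed to 216 ± 12.8 FPKM in the VZ, 255 ± 2.48 FPKM in the mMZ and 231 ± 12.51 FPKM in the lMZ (SD, n = 3 each), so that the middle zone held the highest sum. Sdhb, the iron-sulfur subunit and the highest of the 4, had 67.2, 76.7 and 70.0 FPKM in the VZ, 91.0, 82.1 and 87.3 FPKM in the mMZ and 86.1, 68.6 and 84.6 FPKM in the lMZ. Its VZ libraries lay below the mMZ libraries, and the lMZ libraries overlapped both, with a difference of -0.28 ± 0.14 between the VZ and the mMZ (limma adjusted p = 0.449). Sdhc, a membrane anchor, chosen after its values were seen, had 51.3, 64.7 and 38.5 FPKM in the VZ, 75.9, 79.9 and 82.9 FPKM in the mMZ and 69.1, 59.6 and 69.8 FPKM in the lMZ. Its mMZ libraries lay above all others, with differences of -0.65 ± 0.19 between the VZ and the mMZ (adjusted p = 0.390) and 0.27 ± 0.19 between the mMZ and the lMZ (adjusted p = 0.462).

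Complex III, the cytochrome bc1 complex, passes electrons from ubiquinol to cytochrome c. The 8 nuclear genes that the name patterns took for it summed to 742 ± 118 FPKM in the VZ, 770.4 ± 52.0 FPKM in the mMZ and 797 ± 83.7 FPKM in the lMZ (SD, n = 3 each), and the sums overlapped between zones. None of the 8 was called by limma or had an unadjusted p under 0.05 in any comparison. Of all tested genes 11.9% had such an unadjusted p in the VZ against the mMZ. The share was 35.8% in the VZ against the lMZ and 20.6% in the mMZ against the lMZ. Uqcrh, the hinge subunit and the highest of the 8, had 133, 150.5 and 96.5 FPKM in the VZ, 167, 149 and 122 FPKM in the mMZ and 171, 138 and 104 FPKM in the lMZ, and the 3 zones overlapped.

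Complex IV has 11 tested nuclear genes, which with the 6 untested ones summed to 1562 ± 222 FPKM in the VZ, 1811 ± 84.7 FPKM in the mMZ and 1817 ± 104 FPKM in the lMZ (SD, n = 3 each). Several of its subunits come in a widely expressed and a tissue-restricted form. Cox6a1, the widely expressed form, had 167, 252 and 312 FPKM in the VZ, 300.1, 283 and 242 FPKM in the mMZ and 295, 282 and 309.8 FPKM in the lMZ, whereas its heart and muscle counterpart Cox6a2 was listed at 0 in all 9 libraries. The Cox6a1 libraries overlapped between zones, with a difference of -0.32 ± 0.21 between the VZ and the lMZ (limma adjusted p = 0.304). The overlap of those zones came from the shallow VZ replicate 3. Without both shallow libraries the Cox6a1 difference was -0.52 ± 0.17 (limma adjusted p = 0.0575). Cox7a1, the heart and muscle counterpart of Cox7a2, was listed at 0 in 8 libraries and at 1.57 FPKM in mMZ replicate 2. Cox8a had 163, 237 and 315 FPKM in the VZ, 246, 227 and 218 FPKM in the mMZ and 262, 248 and 225 FPKM in the lMZ, while Cox8b, its heart and muscle form, and Cox8c, its testis form, were listed at 0 throughout. The 4 muscle markers (Actc1, Myh6, Myl2 and Ckm) summed to at most 1.46 FPKM in any library. Cox6b1 had 161, 212 and 181 FPKM in the VZ, 231, 210.1 and 248 FPKM in the mMZ and 278, 247 and 239 FPKM in the lMZ, with the VZ libraries below the lMZ libraries without overlap and a difference of -0.47 ± 0.15 (adjusted p = 0.0517). Its testis form Cox6b2 was low but detected, with 7.10, 9.07 and 0 FPKM in the VZ, 2.93, 6.19 and 5.73 FPKM in the mMZ and 2.67, 5.06 and 2.53 FPKM in the lMZ, and the zones overlapped. Cox7b had 152, 132 and 47.4 FPKM in the VZ, 155, 131 and 123 FPKM in the mMZ and 86.7, 77.6 and 159.9 FPKM in the lMZ, with overlapping zones, and its testis form Cox7b2 was listed at 0 in all but lMZ replicate 3, where it had 0.571 FPKM. Cox4i2, the form best known from lung, had 0 to 1.23 FPKM and was not tested.

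**Figure D2:**
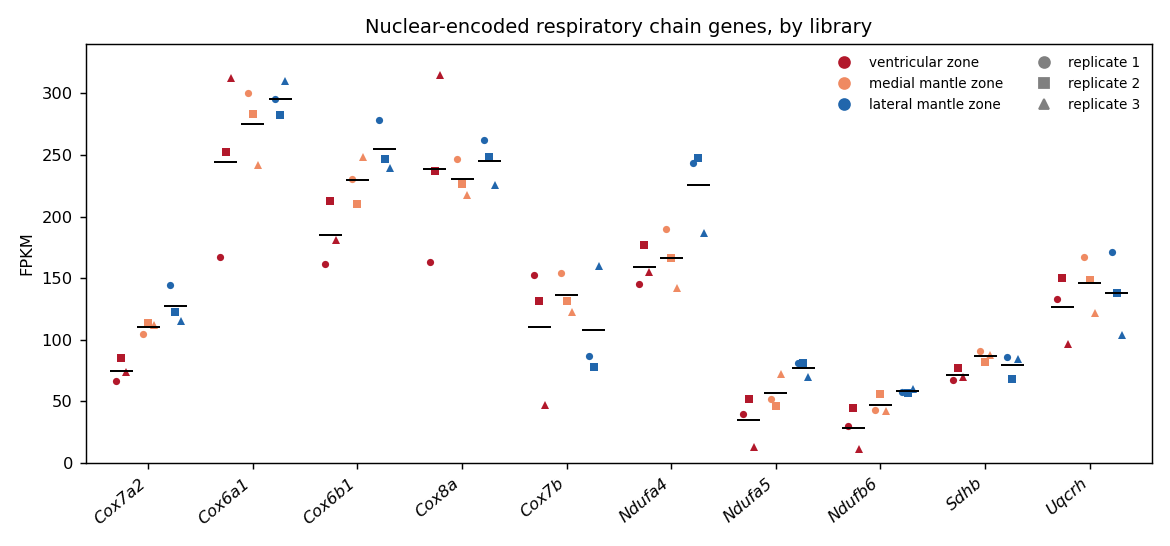
Level in FPKM (linear axis) of 10 nuclear chain genes in every library, by zone (colour) and replicate (symbol), with black bars for zone means. The Cox7a2 points of the 3 zones do not overlap, whereas those of Cox6a1, Cox8a, Cox7b and Uqcrh do.

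Cox5a and Cox6c, chosen after their values were seen, were the other complex IV genes with no overlap between the VZ and the mMZ. Cox5a had 85.3, 126 and 96.3 FPKM in the VZ, 149, 129 and 161 FPKM in the mMZ and 137, 148 and 124 FPKM in the lMZ, and its difference between the VZ and the mMZ was -0.53 ± 0.17 (limma adjusted p = 0.393). Cox6c had 136, 152 and 131 FPKM in the VZ, 187, 164 and 238 FPKM in the mMZ and 204, 169.9 and 181 FPKM in the lMZ, with -0.48 ± 0.16 for the same comparison (adjusted p = 0.393). Cox7a2l, which helps join complexes III and IV into supercomplexes, had 103 ± 20.6, 109 ± 12.1 and 96.8 ± 13.2 FPKM in the VZ, mMZ and lMZ (SD, n = 3 each), and its libraries overlapped, unlike those of Cox7a2. Near-identical copies (at least 95% identity over at least 80% of the coding sequence) exist for 13 of the nuclear genes, among them Cox6c, Cox7b and Uqcrb, so reads of these could have been split or shared, whereas none was found for Cox7a2.

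The mitochondrial genome carries 7 genes of complex I (mt-Nd1 to mt-Nd6 with mt-Nd4l), 1 of complex III (mt-Cytb), 3 of complex IV (mt-Co1 to mt-Co3) and 2 of ATP synthase (mt-Atp6 and mt-Atp8). Some of these genes overlap, and the stretches are shown because a read there belongs to both members of a pair and strand use in the authors' counting is not stated. Coordinates are GRCm38, sequences run 5′ to 3′ on the strand of the gene, and capitals mark the shared bases. The pairs shown are mt-Atp8 (chrM:7897-7969, plus strand) with mt-Atp6 (chrM:7927-7999, plus strand), which share 43 bases, mt-Nd4l (chrM:10137-10173, plus strand) with mt-Nd4 (chrM:10167-10203, plus strand), which share 7, and mt-Nd5 (chrM:13522-13565, plus strand) with mt-Nd6 (chrM:13552-13595, minus strand), which share 14 on opposite strands. mt-Atp6 and mt-Co3 also share 1 base, which is not shown.
mt-Atp8: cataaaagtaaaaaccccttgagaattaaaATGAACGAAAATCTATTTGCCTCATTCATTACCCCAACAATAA
mt-Atp6: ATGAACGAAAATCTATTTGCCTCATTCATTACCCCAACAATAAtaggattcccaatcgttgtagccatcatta
mt-Nd4l: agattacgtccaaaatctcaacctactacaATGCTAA
mt-Nd4: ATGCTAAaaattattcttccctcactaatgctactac
mt-Nd5: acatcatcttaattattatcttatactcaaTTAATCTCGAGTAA
mt-Nd6: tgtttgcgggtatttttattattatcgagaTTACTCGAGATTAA
Nuclear copies also exist for 6 of the 13 genes, namely mt-Atp6, mt-Co1, mt-Co2, mt-Co3, mt-Nd3 and mt-Nd4l. The level of mt-Nd4l was within 1.32% of that of its copy Gm10222 in every library, so its values are uncertain.

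In the mitochondrial complex I genes the mMZ had the lowest means of the 3 zones for all but mt-Nd3. mt-Nd4 had 1395, 1037 and 1917 FPKM in the VZ libraries, 861, 938 and 1563 FPKM in the mMZ libraries and 1721, 2098 and 1992 FPKM in the lMZ libraries. Every mMZ library lay below every lMZ library, and the VZ libraries spread over both ranges. The difference was -0.84 ± 0.28 between the mMZ and the lMZ (log2, SE, limma adjusted p = 0.129). mt-Nd1 had 2128, 1518 and 3287 FPKM in the VZ, 1317, 1519 and 2282 FPKM in the mMZ and 2635, 2957 and 2905 FPKM in the lMZ, and mt-Nd2 had 876, 687 and 1633 FPKM in the VZ, 608, 675 and 1191 FPKM in the mMZ and 1166, 1384 and 1311 FPKM in the lMZ. In both genes the lowest 3 values were those of the 2 deeper mMZ libraries and VZ replicate 2, and the shallow VZ replicate 3 was the highest of all 9. mt-Nd3 had 562, 701 and 1409 FPKM in the VZ, 792, 817 and 1273 FPKM in the mMZ and 1466, 1568 and 1910.3 FPKM in the lMZ. The lMZ libraries of mt-Nd3 lay above all others, with differences of -0.99 ± 0.33 between the VZ and the lMZ (adjusted p = 0.0596) and -0.80 ± 0.33 between the mMZ and the lMZ (adjusted p = 0.205). mt-Nd4l had 908, 702 and 1307 FPKM in the VZ, 564, 705 and 945 FPKM in the mMZ and 1082, 1216 and 1067 FPKM in the lMZ, with the mMZ below the lMZ libraries without overlap.

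With all 9 libraries mt-Nd5 and mt-Nd6 had their highest mean in the VZ, and for mt-Nd6 that order rested on the shallow VZ replicate 3. mt-Nd5 had 763, 534 and 1028 FPKM in the VZ, 475, 486 and 667 FPKM in the mMZ and 599.6, 657 and 630.3 FPKM in the lMZ. mt-Nd6, the one protein gene on the other strand of the mitochondrial genome, had 727, 447 and 1004 FPKM in the VZ, 402, 445 and 652 FPKM in the mMZ and 586, 615 and 637 FPKM in the lMZ. For both genes the highest and the lowest of the 9 values lay outside the lMZ, which overlapped both other zones. The differences between the VZ and the lMZ were above 0, at 0.25 ± 0.24 for mt-Nd5 and 0.17 ± 0.28 for mt-Nd6 (limma adjusted p = 0.470 and 0.696). Without both shallow libraries they were 0.02 ± 0.17 for mt-Nd5 and -0.10 ± 0.20 for mt-Nd6 (adjusted p = 0.931 and 0.732).

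mt-Cytb, an electron-carrying subunit of complex III, had 2608, 2109.6 and 3784 FPKM in the VZ, 1775, 1933 and 2489.5 FPKM in the mMZ and 3136, 3624 and 3278 FPKM in the lMZ. The mMZ libraries lay below the lMZ libraries without overlap, with a difference of -0.71 ± 0.23 (limma adjusted p = 0.130). The complex IV genes form the catalytic core of cytochrome c oxidase. mt-Co1 had 4192, 3320.2 and 5368 FPKM in the VZ, 2771, 3097 and 4207 FPKM in the mMZ and 4744, 5296 and 4844 FPKM in the lMZ. mt-Co2 had 4137, 3263 and 5945 FPKM in the VZ, 2679, 3067 and 4265 FPKM in the mMZ and 5052, 5845 and 5149 FPKM in the lMZ. mt-Co3 had 3012, 2679 and 3957 FPKM in the VZ, 2453, 2902 and 5036 FPKM in the mMZ and 5294, 5423 and 5249 FPKM in the lMZ. In all 3 the mMZ libraries lay below the lMZ libraries without overlap, and in mt-Co3 the VZ libraries did too. The differences between the mMZ and the lMZ were -0.58 ± 0.23, -0.71 ± 0.26 and -0.69 ± 0.27 for mt-Co1, mt-Co2 and mt-Co3 (adjusted p = 0.192, 0.163 and 0.191), and that of mt-Co3 between the VZ and the lMZ was -0.75 ± 0.27 (adjusted p = 0.0814).

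The ATP synthase genes encode subunits of the membrane part through which protons return. mt-Atp6 had 3814, 2975 and 5924 FPKM in the VZ, 2596, 2987 and 5394 FPKM in the mMZ and 5589, 6011 and 6008 FPKM in the lMZ. mt-Atp8 had 4141, 3369 and 6890.5 FPKM in the VZ, 3255, 3647 and 7075 FPKM in the mMZ and 5654, 6695 and 7854 FPKM in the lMZ. The mMZ libraries of mt-Atp6 lay below its lMZ libraries without overlap, while those of mt-Atp8 overlapped through the shallow replicate 3. The differences between the mMZ and the lMZ were -0.76 ± 0.32 for mt-Atp6 and -0.61 ± 0.35 for mt-Atp8 (limma adjusted p = 0.216 and 0.355).

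**Figure D3:**
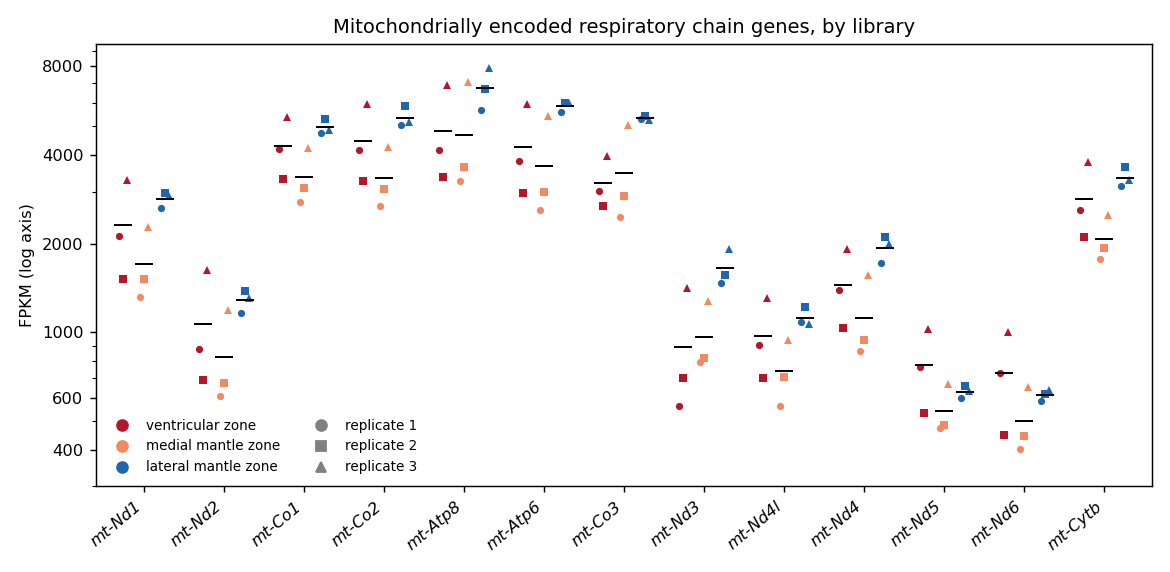
Level in FPKM (log axis) of the 13 mitochondrial chain genes in genome order, in every library by zone (colour) and replicate (symbol), with black bars for zone means. The shallow replicates 3 of the VZ and the mMZ are the highest of their zones for every gene, and the lMZ libraries lie closer together than those of the other zones.

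Over the 13 genes the median difference was 0.38 between the VZ and the mMZ, with 11 above 0 and no gene at an unadjusted p under 0.05. It was -0.36 between the VZ and the lMZ, with 11 below 0, and turned to 0.21 after quantile normalization. It was -0.70 between the mMZ and the lMZ, with 13 below 0, and -0.30 after quantile normalization. Of the 14004 tested genes 6326 lay above 0 between the VZ and the mMZ, and 11.9% had an unadjusted p under 0.05 there. Below 0 lay 47.1% between the VZ and the lMZ and 41.6% between the mMZ and the lMZ. In 9 of the 13 the mMZ libraries lay below the lMZ libraries without overlap, against 14.8% of all tested genes, and in 2 the VZ libraries did, against 19.9%. Leaving out the shallow VZ replicate 3 alone gave 2 of 13 called lower in the mMZ than in the lMZ, where 3.14% of all tested genes were, and 1 of 13 called lower in the VZ than in the lMZ, where 7.53% were. Leaving out mMZ replicate 3 alone gave 0 of 13, against 0.202%, and 1 of 13, against 9.74%. The 13 genes come from 1 genome and shared precursors, so they are not independent of each other.

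Both shallow libraries had the highest mitochondrial values of their zones, and the counts depended on them. Without them, limma called 11 of the 13 genes lower in the mMZ than in the lMZ, where 2.65% of 13717 tested genes were lower by that rule. The 2 not called were mt-Nd5 (adjusted p = 0.167) and mt-Nd6 (adjusted p = 0.123), and mt-Nd4 had -1.10 ± 0.18 (adjusted p = 0.00980). Without the same libraries 7 of the 13 were called lower in the VZ than in the lMZ, where 12.7% of all tested genes were, with mt-Nd3 at -1.38 ± 0.17 (adjusted p = 0.00183) and mt-Nd5 at 0.02 ± 0.17 (adjusted p = 0.931). None of the 13 was called between the VZ and the mMZ (limma adjusted p 0.531 to 0.881, none at an unadjusted p under 0.05). The 2 remaining mMZ libraries lay below every lMZ library in all 13 genes, against 19.7% of all tested genes, and the 2 remaining VZ libraries did so in 11 of the 13, against 25%. With those libraries left out, 9 of 59 nuclear genes were called lower in the VZ than in the lMZ, against 12.7% of all tested genes, and 1 higher, against 15.7%. Besides Cox7a2 the lower ones were Cox5b, Ndufa1, Ndufa13, Ndufa5, Ndufa8, Ndufb6, Ndufs6 and Uqcr11, with log2 differences between -0.80 (Ndufa8) and -0.38 (Ndufa13), and the higher one was Cox6b2. Ndufa5 alone was also called lower in the mMZ than in the lMZ (-0.64 ± 0.15, adjusted p = 0.0321), where 2.65% of all tested genes were. Removing 2 of 9 libraries leaves 2 in each of 2 zones, and whether depth itself moves the mitochondrial share was not tested.

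The ratio of summed mitochondrial to summed nuclear chain FPKM does not depend on how a library was scaled as a whole. It was 7.32, 4.85 and 8.77 in the VZ libraries, 3.78, 4.67 and 7.23 in the mMZ libraries and 6.75, 8.37 and 8.41 in the lMZ libraries. The 2 deep mMZ libraries had the lowest ratios and the zones overlapped. On the log2 scale the zone means were 2.76 ± 0.44, 2.33 ± 0.48 and 2.96 ± 0.18 (SD, n = 3 each), which differ by 0.43 between the VZ and the mMZ, by -0.20 between the VZ and the lMZ and by -0.63 between the mMZ and the lMZ. Without the shallow libraries these differences were 0.50, -0.39 and -0.89. The mitochondrial genes made up 7.30%, 5.27% and 9.05% of all FPKM in the VZ libraries, 4.57%, 4.97% and 7.84% in the mMZ libraries and 7.39%, 7.93% and 9.46% in the lMZ libraries. These are shares of FPKM, which weigh a gene by length, and not shares of reads.

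**Figure D4:**
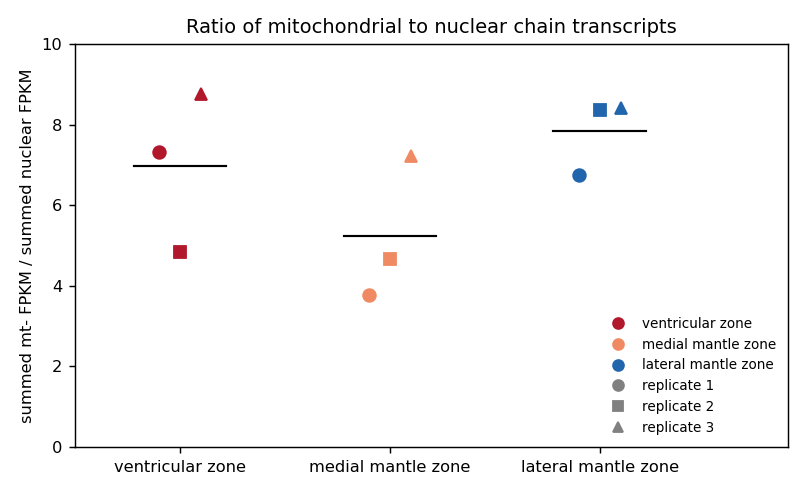
Ratio of summed mt- FPKM to summed nuclear chain FPKM (no unit, axis from 0) in each library by zone, with replicates as symbols and black bars for zone means. The deep mMZ replicates 1 and 2 are the lowest points, at 3.78 and 4.67, and the shallow replicates 3 of the VZ and mMZ are the highest of their zones.

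Within the mitochondrial sum, 2 genes set the lMZ apart from both other zones. mt-Nd5 made up 2.61%, 2.29% and 2.37% of the sum in the VZ libraries, 2.31%, 2.09% and 1.80% in the mMZ libraries and 1.55%, 1.51% and 1.47% in the lMZ libraries. mt-Nd6 made up 2.48%, 1.92% and 2.31%, then 1.96%, 1.92% and 1.76%, and 1.51%, 1.42% and 1.49% in the same order of libraries. Both shares were lower in every lMZ library than in any other library, the shallow ones included. The log2 ratio of mt-Nd5 to mt-Nd4, its neighbour upstream on the same strand, was -0.87, -0.96 and -0.90 in the VZ, -0.86, -0.95 and -1.23 in the mMZ and -1.52, -1.68 and -1.66 in the lMZ. The log2 ratio of mt-Nd5 to mt-Cytb was -1.88 ± 0.10, -1.93 ± 0.05 and -2.41 ± 0.05 in the VZ, mMZ and lMZ (SD, n = 3 each). The log2 ratio of mt-Nd6 to mt-Nd5 lay between -0.26 and 0.02 in all 9 libraries and overlapped between zones, and these are the genes of the pair printed above that share 14 bases on opposite strands. The part of shared reads in that was not tested.

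mt-Co3 and mt-Nd3 had smaller shares in the VZ. mt-Co3 made up 10.3%, 11.5% and 9.11% of the sum in the VZ libraries, 11.9%, 12.499% and 13.6% in the mMZ libraries and 13.7%, 12.498% and 12.3% in the lMZ libraries. mt-Nd3 made up 1.92%, 3.001% and 3.24%, then 3.86%, 3.52% and 3.44%, and 3.79%, 3.61% and 4.46% in the same order. For both genes every VZ library lay below every other library. Both genes have nuclear copies, and the part of shared reads in that was not tested. Of the 13 shares, 9 had no overlap between the VZ and the lMZ (6 higher and 3 lower), 4 between the mMZ and the lMZ (2 higher and 2 lower) and 5 between the VZ and the mMZ (3 higher and 2 lower). Shares of 1 sum are bound to each other, and an exact permutation test of 3 against 3 libraries cannot give a two-sided p below 0.1, so no test was made on them. No background over all genes is given for such shares, so these counts are not read as above or below one.

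**Figure D5:**
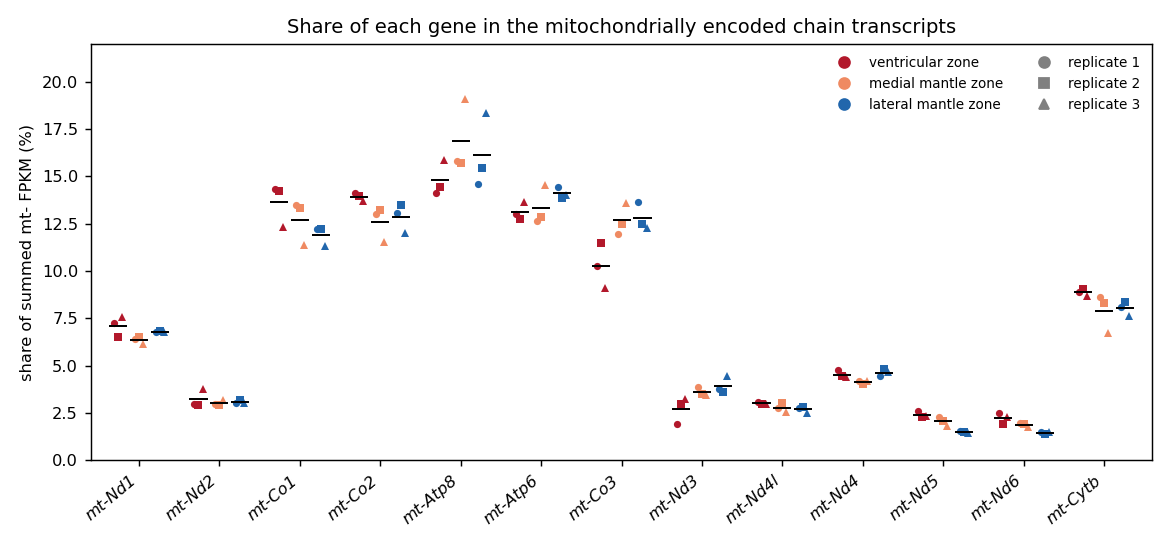
Share of each mitochondrial gene in the summed mt- FPKM of its library, in percent, by zone (colour) and replicate (symbol), with black bars for zone means. The lMZ points of mt-Nd5 and mt-Nd6 lie below those of the other zones, and the VZ points of mt-Co3 and mt-Nd3 lie below those of the other zones.

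Genes that serve the chain without being part of it were counted in lists, and each count stands against 8.93% of all tested genes called lower and 10.7% called higher in the VZ than in the lMZ. Of 16 nuclear ATP synthase genes, limma called 1 between the VZ and the lMZ, Atpif1, which encodes the inhibitor of ATP synthase, with 137, 233 and 223 FPKM in the VZ, 265, 256 and 249.9 FPKM in the mMZ and 309, 311 and 321 FPKM in the lMZ. Its difference was -0.70 ± 0.19 (adjusted p = 0.0330), and leaving out VZ replicate 1, mMZ replicate 1 or 2 or any lMZ library raised the adjusted p to between 0.0531 and 0.0986. It was 0.0632 with no filter, 0.0681 after rescaling without the mt- genes, 0.0643 with no intensity trend and 0.0771 with only the zones compared. Of 34 assembly factors 1 was called in that comparison, Ndufaf2, an assembly factor of complex I, with 10.2, 8.84 and 7.03 FPKM in the VZ, 18.3, 11.8 and 13.5 FPKM in the mMZ and 19.8, 14.7 and 14.1 FPKM in the lMZ. Its difference was -0.83 ± 0.24 (adjusted p = 0.0404), and the call was lost without both shallow libraries and without any single library other than VZ replicate 2 or mMZ replicate 3, with adjusted p-values up to 0.157. It was also lost with no filter (0.0566), after rescaling without the mt- genes (0.104) and with only the zones compared (0.0640). None of the 10 genes for electron carriers and ubiquinone synthesis was called in any comparison by limma, and at an unadjusted p under 0.05 there was 1 lower in the VZ than in the mMZ, against 8.16% of all tested genes, none between the VZ and the lMZ, and 2 higher in the mMZ than in the lMZ, against 14.5%.

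Of 12 genes for mitochondrial DNA upkeep and transcription, 2 were called higher in the VZ than in the lMZ, against 10.7% of all tested genes, and 1 in the mMZ than in the lMZ, against 3.58%. Ssbp1, the mitochondrial single-stranded DNA binding protein, had 48.5, 32.5 and 39.8 FPKM in the VZ, 34.3, 38.8 and 48.7 FPKM in the mMZ and 18.5, 13.9 and 24.5 FPKM in the lMZ. The lMZ libraries lay below all others, with differences of 1.06 ± 0.24 between the VZ and the lMZ (adjusted p = 0.0171) and 1.08 ± 0.24 between the mMZ and the lMZ (adjusted p = 0.0380). Polg, the catalytic subunit of the mitochondrial DNA polymerase, had 31.8, 22.1 and 31.7 FPKM in the VZ, 23.7, 26.5 and 33.4 FPKM in the mMZ and 17.0, 13.6 and 13.7 FPKM in the lMZ. Its lMZ libraries also lay below all others, with a difference of 0.89 ± 0.21 between the VZ and the lMZ (adjusted p = 0.0199). The Ssbp1 call between the VZ and the lMZ was lost without VZ replicate 1 or lMZ replicate 1 or 2, and the Polg call without VZ replicate 1 or lMZ replicate 2 or 3, with adjusted p-values up to 0.0695 and 0.0774. The Ssbp1 call between the mMZ and the lMZ was lost without VZ replicate 1, any mMZ library or lMZ replicate 1 or 2 (adjusted p up to 0.168). It was also lost with no filter (0.0659), quantile normalization (0.0502), trimmed mean scaling (0.0600), rescaling without the mt- genes (0.0575) and no intensity trend (0.0589).

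Of 17 genes of the Krebs cycle and pyruvate entry, Suclg2, a subunit of succinyl-CoA ligase, was the 1 called, higher in the VZ than in the lMZ. It had 8.18, 4.81 and 11.9 FPKM in the VZ, 4.15, 4.18 and 4.11 FPKM in the mMZ and 2.22, 1.07 and 0.894 FPKM in the lMZ, with a difference of 1.92 ± 0.35 (adjusted p = 0.00700). The 3 zones did not overlap. None of 7 tested biogenesis regulators and none of 4 tested chain-like genes outside the name patterns was called by limma in any comparison. At an unadjusted p under 0.05, 3 of the 7 regulators were higher in the VZ than in the lMZ, against 19.3% of all tested genes, and 1 of the 4 chain-like genes was lower, against 16.5%. Of the 4, 1 was lower in the VZ than in the mMZ, against 8.16%, and 1 was higher in the mMZ than in the lMZ, against 14.5%.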

How the data were processed

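The FPKM values of 9 libraries were deposited by the authors as 1 table for the series. Reads were aligned with Bowtie2 2.1.0 to mm10, per the submitters' processing notes; the program that estimated FPKM, its annotation and its use of strand are not given in the sources used here. Of 38370 rows, 42 identical ones were dropped and the 133 other repeats of a symbol were removed, which left 38195 symbols. Count models were left aside because FPKM are not counts. The 14004 genes that reached 1 FPKM in 3 or more libraries were compared as log2(FPKM + 1) with limma 3.58.1 in R 4.3.3, with 1 mean per zone, an intensity trend and two-sided p-values adjusted by Benjamini-Hochberg over all tested genes. Depth is known only in relative terms: 62.4% to 69.3% of low values lay within 0.1 of a whole step, and the step came from the same values. Precision is therefore given by the spread of replicates. Library values are printed for members past the threshold, all mt- members, the highest nuclear member of each complex and the isoform pairs of complex IV. Values of Ndufa5, Ndufb6, Ndufa13, Ndufb2, Ndufa11, Sdhc, Cox5a and Cox6c were added after they were seen. Pathway genes are named where they passed the threshold, up to 3 a list. Membership followed the symbols, but the choice of this gene group, its name patterns, the lists and the markers was made with earlier results of these data known. Similar genes were found with blastn 2.17.0 on GENCODE M21 coding sequences, and promoters came from RefSeq. The fit was tested on simulated data, and 22 alternatives were tried (other pseudocounts, filters, scalings, variance models and left-out libraries).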

Additional observations from a re-analysis of the deposited data

How the results depend on the processing

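Cox7a2 kept its direction and stayed past the threshold in all 22 alternatives. Array weights, whose estimation stopped before reaching its tolerance, gave the most calls: 2761, 6800 and 3700 of all genes, 21, 26 and 1 nuclear chain genes and 8, 9 and 13 mitochondrial genes in the VZ against the mMZ, the VZ against the lMZ and the mMZ against the lMZ, with nuclear medians of -0.33 and -0.35 in the first 2, and it turned Cox8a to -0.44 (adjusted p = 0.0348) between the VZ and the mMZ. Fitting only the zones compared gave 1684 genes with 2 nuclear chain genes in the VZ against the lMZ, and 2027 genes with 5 mitochondrial genes in the mMZ against the lMZ. Without both shallow libraries the mMZ against the lMZ gave 1651 genes, 11 mitochondrial and 1 nuclear, and the VZ against the lMZ 7 mitochondrial and 10 nuclear. Of the nuclear genes in the latter, Cox6b2 was higher in the VZ and the others were lower. Between the VZ and the mMZ, pseudocount 5, a mean of at least 5 FPKM and quantile normalization gave 5, 4 and 9 genes. Quantile normalization put the mitochondrial median at 0.21 (VZ) and -0.30 (mMZ) against the lMZ and the log2 ratio of mitochondrial to nuclear sums at 0.59 and -0.059, and turned mt-Co1 to 0.90 (adjusted p = 0.0402), the 1 mitochondrial gene called there. Trimmed mean scaling moved the nuclear medians to -0.30 (VZ) and -0.13 (mMZ) against the lMZ and called 6 nuclear and 2 mitochondrial genes in the first and 1 mitochondrial gene in the second. Rescaling without the mt- genes gave a nuclear median of -0.0056 and 2 nuclear genes between the VZ and the lMZ, and pseudocount 5, the filter at 5 FPKM and quantile normalization gave 2 nuclear genes each. The cause was not tested. Of all genes called between the mMZ and the lMZ, 86.8% were higher in the mMZ, against 66.6% after quantile normalization, and of those called between the VZ and the lMZ, 54.5% were higher in the VZ, against 71.0% after rescaling. No label says that same-numbered libraries belong together: 4 of 9 pairs had a correlation of deviations above 0.1, and 5 of 9 libraries correlated best with their own number. The replicate block gave 2 nuclear genes and 1 mitochondrial gene between the VZ and the lMZ. For the chain gene counts against the lMZ under other scalings, filters, pseudocounts and the block, the share of all tested genes called is not given. Those counts are therefore not read as above or below the background. Leaving out 1 library at a time gave 0 to 566 genes (most without VZ replicate 2) between the VZ and the mMZ, 940 (without lMZ replicate 1) to 3960 (without VZ replicate 2) between the VZ and the lMZ, and 202 (without lMZ replicate 2) to 1767 (without VZ replicate 3) between the mMZ and the lMZ. In the same order of comparisons it gave 0 to 2, 1 to 12 and 0 to 0 nuclear genes, 0 to 0, 0 to 1 and 0 to 2 mitochondrial genes, nuclear medians of -0.26 to -0.16, -0.27 to -0.11 and -0.067 to 0.046, mitochondrial medians of 0.15 to 0.60, -0.65 to -0.10 and -0.95 to -0.52, and log2 ratios of 0.22 to 0.69, -0.39 to 0.038 and -0.89 to -0.43. Among uncalled member values, 68 of 1717 changed sign.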

Other observations

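Values outside the protein genes of the mitochondrial genome were read after they were seen. mt-Rnr1, the small ribosomal RNA of the mitochondrion, had 139, 154 and 346 FPKM in the VZ, 108, 139.8 and 228 FPKM in the mMZ and 469, 539 and 544 FPKM in the lMZ. mt-Rnr2, the large ribosomal RNA, had 232, 204 and 349.8 FPKM in the VZ, 170.2, 189 and 259.8 FPKM in the mMZ and 430.3, 542 and 511 FPKM in the lMZ. Both were higher in every lMZ library than in any other library. For mt-Rnr1 the difference was -1.40 between the VZ and the lMZ and -1.77 between the mMZ and the lMZ (limma adjusted p = 0.0252 and 0.0246), and for mt-Rnr2 it was -0.95 and -1.27 (adjusted p = 0.0219 and 0.0152). Of all tested genes 8.93% were called lower in the VZ than in the lMZ, and 76 of 14004 in the mMZ than in the lMZ. The part of RNA selection during library preparation in these levels was not tested. The VZ calls were lost without VZ replicate 1 or any lMZ library. The mMZ call of mt-Rnr1 was lost without mMZ replicate 1 or 2 or any lMZ library, and that of mt-Rnr2 without mMZ replicate 1 or 2 or lMZ replicate 2 or 3. With no filter both mt-Rnr1 calls were lost too, in the VZ (limma adjusted p = 0.0566) and in the mMZ (0.0635) against the lMZ. The log2 ratio of mt-Rnr1 to mt-Nd1, the protein gene downstream, was -3.94, -3.31 and -3.25 in the VZ, -3.61, -3.44 and -3.32 in the mMZ and -2.49, -2.46 and -2.42 in the lMZ. The 22 mitochondrial tRNA genes were listed at 0 in every library.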
